A study of Homo sapiens with 6 samples.

Results

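The genes described here encode 10 nuclear factors that transcribe the mitochondrial genome or process its RNA. They were taken as a list of symbols, chosen with earlier results of these data known. All 10 were found among the 60609 Ensembl gene identifiers of the deposited tables, and all 10 were among the 20725 genes that passed the limit on low counts. They are *POLRMT*, *TFAM*, *TFB2M*, *TEFM*, *LRPPRC*, *SLIRP*, *PNPT1*, *SUPV3L1*, *MTPAP* and *ELAC2*. The measurements come from OCI-AML5, an established cell line from a human acute myeloid leukemia that was grown with the cytokine GM-CSF. RNA was sequenced from 3 samples exposed for 24 hours to 1 μM S767, a small molecule found in a chemical screen of leukemia specimens, and from 3 samples exposed to DMSO, its solvent. The question of the comparison was how S767 changed gene expression. OCI-AML5 is a single line, and the values describe mRNA in whole cultures, not protein.

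Mitochondrial DNA is transcribed by a single-subunit RNA polymerase into long transcripts of both strands, which are then cut into mRNAs, rRNAs and tRNAs. The polymerase POLRMT is placed at a promoter by TFAM, which also packs the DNA, and by TFB2M, which helps to open it, while TEFM keeps the polymerase moving. LRPPRC and SLIRP form a complex that protects mitochondrial mRNAs, MTPAP adds their poly(A) tails, ELAC2 cuts the 3′ ends of the tRNAs, and the exonuclease PNPT1 with the helicase SUPV3L1 degrades RNA. All of these proteins are made in the cytosol from the mRNAs of nuclear genes and imported. Their genes are thus transcribed by the nuclear and not by the mitochondrial machinery.

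Gene counts summed to 149994700 in the smallest library and 258029564 in the largest. Libraries of both treatments that carry the same replicate number deviated together, and therefore a second fit, which takes the number as a block, is given where it changes a call. Of 10 hematopoietic and myeloid markers, 8 had a mean of at least 1 TPM, a level scaled for transcript length, and their sum was 760.6 to 1149 TPM in DMSO and 755.6 to 1157 TPM in S767. *KIT* and *ELANE* were below 1 TPM. Of 11 markers of other cell types, only *PECAM1*, which blood cells also express, reached 1 TPM. *KRT19*, *CD3E* and *HBA1* were listed at 0.

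The regulator NRF1 binds promoters of many genes for mitochondrial proteins, and its own mRNA is described below beside those of the 10 factors. Its site was therefore searched in RefSeq promoters (GRCh38.p14, 250 bases before to 50 after the start of each gene), which were found for all 10 genes. The core CGCATGCG, which reads the same on both strands, was present in 3 of the 10, *POLRMT*, *TFB2M* and *MTPAP*, and in 2.02% of all 35116 promoters. A longer form of the NRF1 site with 1 open base, searched on both strands, was present in *POLRMT*, where it overlaps the core, and in *TFAM*, and in 5.78% of all promoters. The 30 bases around these matches are shown because they are what these genes share outside their expression values, with the matched letters in capitals and each sequence read on the strand of its gene.
POLRMT, chr19:633542-633571, minus strand: ggcggcgcgggCGCATGCGcaggcgcgggc
TFB2M, chr1:246566262-246566291, minus strand: aaggctccgctgttCGCATGCGcaggctct
MTPAP, chr10:30349329-30349358, minus strand: ctcccccccgaCGCATGCGcgaaaacgcgc
TFAM, chr10:58385337-58385366, plus strand: acgctctcccGCGCCTGCGCcaattccgcc
The match began 23 bases before the start in *POLRMT*, 16 in *TFB2M*, 69 in *MTPAP* and 63 in *TFAM*. The ETS letters CCGGAAG, which GABPA binds, were present in *POLRMT*, *TEFM*, *SLIRP* and *ELAC2*, against 10.3% of all promoters, and the GC box GGGCGG in 5 of the 10, against 45%. The 35116 promoters were not matched to the 10 genes in expression or base content, so these shares do not show an enrichment, which was not tested. A match of letters is a description of the sequence and does not show that a factor was bound in these cells.

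On the TPM scale the 10 mRNAs spanned a 21.3-fold range. *SLIRP* was the highest, with 290.1 ± 21.2 TPM (SD, n = 3) in DMSO and 273.1 ± 12.5 TPM (SD, n = 3) in S767. *LRPPRC* followed with 107.5 ± 7.81 and 102.6 ± 3.93 TPM, and *POLRMT* with 105.3 ± 4.6 and 102.6 ± 6.58 TPM (SD, n = 3 each). The 6 libraries of *LRPPRC* and *POLRMT* overlapped in level, and this was the only pair of neighbours in the order that did. Below them came *TFAM* with a mean of 84.8 TPM over all 6 libraries, *ELAC2* with 68.7, *TFB2M* with 58.5, *SUPV3L1* with 41.7, *PNPT1* with 35.4, *MTPAP* with 19.8 and *TEFM* with 13.2 TPM. *SLIRP* thus stood above 97.9% of all genes tested and *TEFM*, the lowest, above 64.9%. Between treatments, the levels of 9 of the 10 overlapped, as the plot of TPM levels shows.

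**Figure D1:**
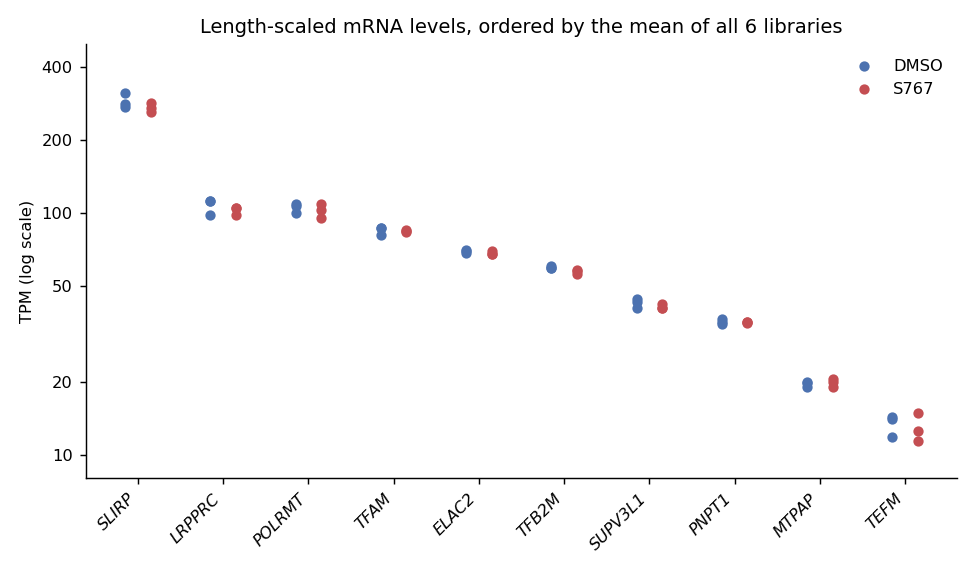
Length-scaled mRNA level in TPM (log axis) of the 10 genes, ordered by the mean of all libraries, with 1 point per library, DMSO in blue and S767 in red. The levels run from about 281.6 TPM for *SLIRP* to 13.2 TPM for *TEFM*, and the points of both treatments lie beside each other for every gene.

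None of the 10 genes passed edgeR's quasi-likelihood test of S767 against DMSO. At a *P* value under 0.05, the limit of the study, 0 of the 10 passed, where 3.53% of all genes tested did, and the lowest *P* value was 0.145, for *TFB2M*. Past an adjusted p of 0.05 there were likewise 0, where 0.00483% of all genes, a single gene, passed. limma-voom and DESeq2 also called 0 of the 10 at either limit. The fitted log2 fold changes lay between -0.069 for *SLIRP* and -0.018 for *TFAM*, with a median of -0.034, against -0.00024 over all genes tested. All 10 values were below 0, as were 50.2% of those of all genes and 46.2% of those of the 8767 genes expressed within the same range of log2 CPM, which are counts scaled to library size. In cultures, less RNA per cell and fewer cells that express a gene cannot be told apart.

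**Figure D2:**
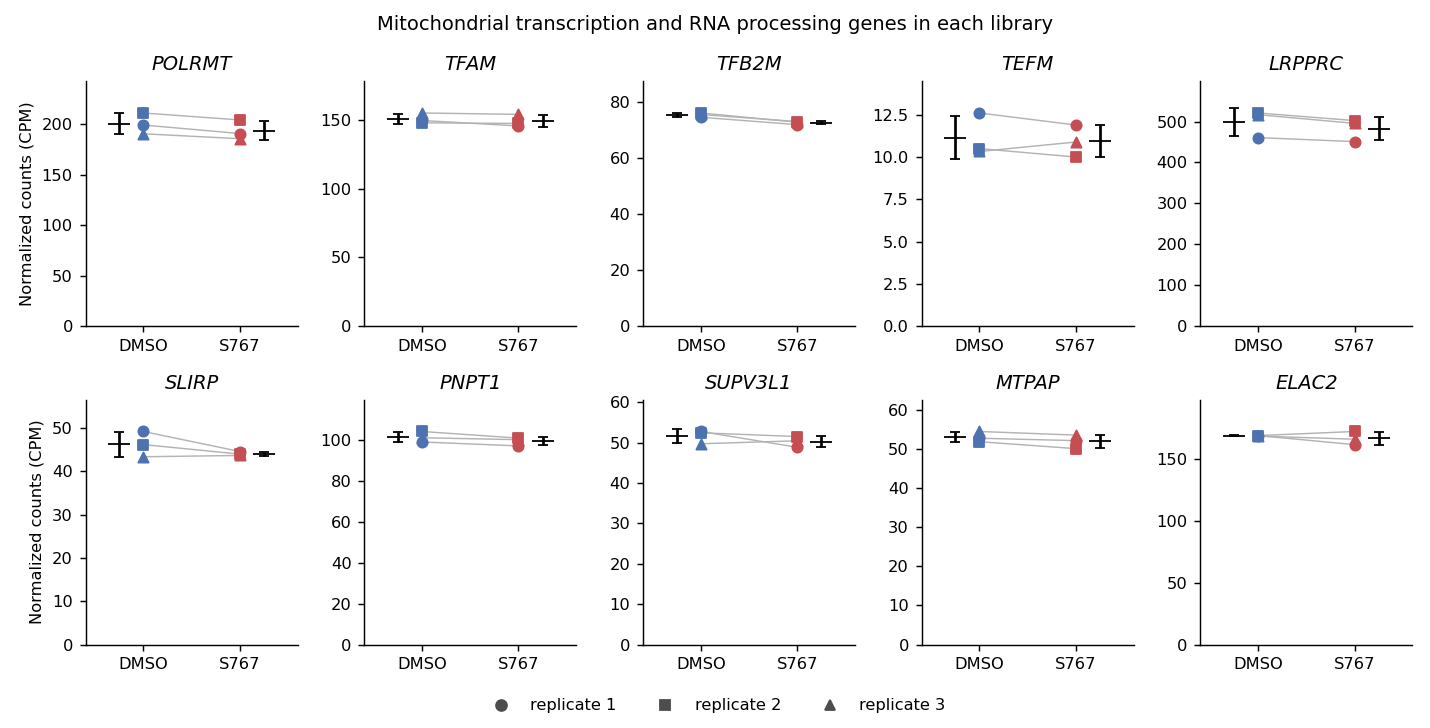
Normalized counts (CPM, axes from 0) of each gene in every library, with lines joining libraries of the same replicate number and black bars for mean ± SD of the 3 libraries of a treatment. Only the *TFB2M* groups do not overlap, with 74.5 to 76.0 CPM in DMSO and 71.9 to 73.0 CPM in S767.

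The initiation and elongation machinery is described first. *POLRMT* (ENSG00000099821.14, chromosome 19 from 617224 to 633604), the RNA polymerase, had 199.2, 211.1 and 190.5 CPM in the DMSO libraries and 190.7, 204.2 and 185.6 CPM in the S767 libraries of replicates 1 to 3. The groups overlapped, although S767 was the lower library in all 3 pairs, and the log2 fold change was -0.049 (standard error 0.052). The 95% interval of this difference ran from -11% to 4.91%. With the block its standard error was 0.022, its *P* value 0.0463 and its adjusted p 0.287. On the opposite strand, where no other gene is annotated, the share of its fragments was at most 0.558%, and its S767 values were all above its DMSO values, a separation seen for 2.21% of all genes tested.

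*TFAM* (ENSG00000108064.11, chromosome 10 from 58385022 to 58399221), the packaging and initiation factor, had 149.8, 148.1 and 155.3 CPM in DMSO and 145.8, 147.6 and 154.3 CPM in S767. Its groups overlapped, with the third replicate the highest in both treatments. The log2 fold change was -0.018 (standard error 0.039), with an interval from -7.12% to 5.07%.

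*TFB2M* (ENSG00000162851.8, chromosome 1 from 246540560 to 246566324), the other initiation factor, was the only gene of the 10 whose groups did not overlap. It had 74.5, 76.0 and 75.5 CPM in DMSO and 71.9, 72.7 and 73.0 CPM in S767 (p = 0.1 by a two-sided exact permutation test of log2 CPM, below which 3 against 3 libraries cannot go). Groups without overlap and lower in S767 were seen for 4.08% of all genes tested. The log2 fold change of -0.055 (standard error 0.034) had an interval from -8.81% to 1.62%. With the replicate block its *P* value was 0.0365 and its adjusted p 0.256. Its TPM values also did not overlap, at 59.5, 59.4 and 60.3 in DMSO and 58.4, 55.9 and 57.3 in S767.

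*TEFM* (ENSG00000172171.11, chromosome 17 from 30897336 to 30906820), the elongation factor, was the least precisely measured. It had 12.6, 10.5 and 10.3 CPM in DMSO and 11.9, 10.0 and 10.9 CPM in S767. The first replicate was the highest in both treatments, and the direction differed between the pairs. Its log2 fold change was -0.028 (standard error 0.10), and the interval, from -16.2% to 14.8%, was the widest of the 10. Between 21.8 and 26.5% of its fragments lay on the opposite strand, where *ADAP2* and another gene are annotated, and these were not counted for it.

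Of the proteins that hold and protect mitochondrial mRNA, *LRPPRC* (ENSG00000138095.19, chromosome 2 from 43886508 to 43996005) had the most counts of the 10, with 460.6, 520.9 and 516.8 CPM in DMSO and 450.9, 502.3 and 495.6 CPM in S767. The first replicate was the lowest in both treatments, by more than the treatments differed. The log2 fold change was -0.048 (standard error 0.061), with an interval from -12.2% to 6.53%. With the block the standard error was 0.023 and the *P* value 0.0576, which was 0.0278 by limma-voom with the block and 0.0320 with RSEM's expected counts and the block. In the fit without the block the size depended on single libraries, at -0.10 without DMSO replicate 1 and -0.00066 without S767 replicate 1. Leaving out 1 library of a pair moves the difference between replicates into this estimate. With the block, the value was -0.057, -0.048 and -0.043 without the replicate 1, 2 or 3 pair.

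*SLIRP* (ENSG00000119705.9, chromosome 14 from 77708071 to 77761104), which binds LRPPRC, had 49.2, 46.2 and 43.3 CPM in DMSO and 44.6, 44.0 and 43.6 CPM in S767. The S767 libraries lay within 1 CPM of each other and near the lowest DMSO library. Its log2 fold change of -0.069 (standard error 0.052) was the largest of the 10 in size, with an interval from -12.2% to 3.46%. Without DMSO replicate 1 it was -0.022, and *LRPPRC* was then the larger of the pair. With the block its *P* value was 0.0479 and its adjusted p 0.292, and the difference between libraries of the same number was -0.14, -0.070 and 0.0098 on the log2 CPM scale. Between 30.8 and 35.0% of the fragments over this gene lay on the opposite strand, where *SNW1* is annotated. *C14orf178* is annotated over it on the same strand.

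The poly(A) polymerase *MTPAP* (ENSG00000107951.14, chromosome 10 from 30309801 to 30374448) had 52.8, 51.9 and 54.6 CPM in DMSO and 52.2, 50.2 and 53.6 CPM in S767. The groups overlapped and the log2 fold change was -0.030 (standard error 0.043). Small RNA genes and pseudogenes are annotated within it, some on the same strand. On the TPM scale its mean was 19.7 ± 0.491 in DMSO and 19.8 ± 0.751 in S767 (SD, n = 3 each), so the sign of this difference depended on the scale.

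The RNA-degrading pair gave similar results. *PNPT1* (ENSG00000138035.15, chromosome 2 from 55634265 to 55693910), the exonuclease, had 99, 104.1 and 101.1 CPM in DMSO and 97.1, 100.9 and 100.1 CPM in S767. Its log2 fold change was -0.029 (standard error 0.037). *SUPV3L1* (ENSG00000156502.14, chromosome 10 from 69180232 to 69209099), the helicase, had 52.7, 52.4 and 49.7 CPM in DMSO and 48.8, 51.5 and 50.4 CPM in S767. Its log2 fold change was -0.039 (standard error 0.043). Both overlapped between treatments, and the intervals reached from -7.61% to 3.96% for *PNPT1* and from -9.06% to 4.23% for *SUPV3L1*.

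*ELAC2* (ENSG00000006744.19, chromosome 17 from 12992391 to 13018187), which cuts tRNA 3′ ends, had 169.1, 169.1 and 168.7 CPM in DMSO. The S767 libraries had 161.8, 172.5 and 166.2 CPM, so that they lay on both sides of the DMSO libraries. Its log2 fold change was -0.019 (standard error 0.037), with an interval from -6.89% to 4.66%.

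**Figure D3:**
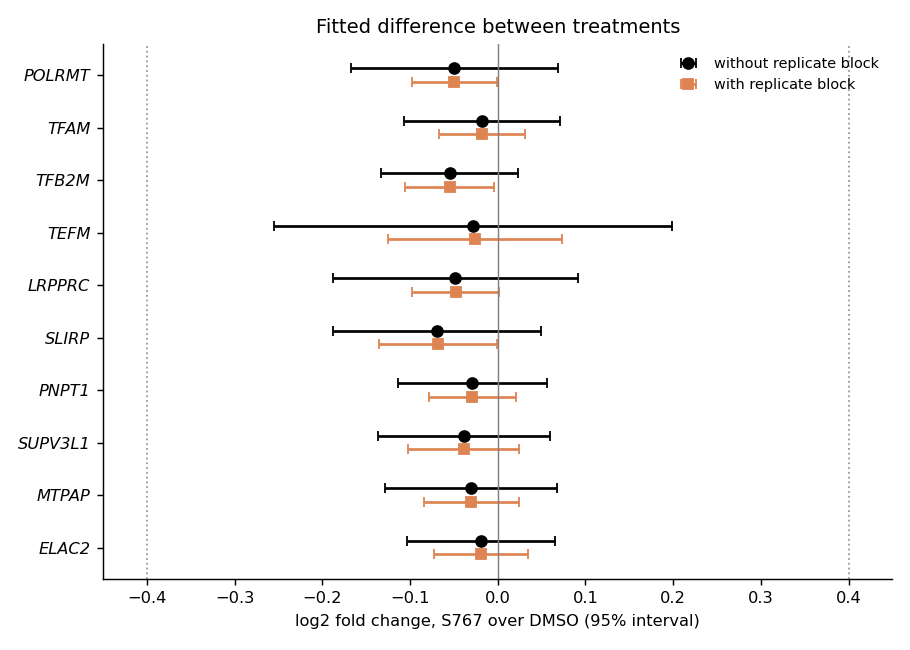
Fitted log2 fold change of S767 over DMSO with its 95% interval for each gene, without (black circles) and with (orange squares) the replicate number as a block. Dotted lines mark the fold limit of 0.4 used in the study. All intervals without the block include 0 and stay inside the dotted lines, and those of *POLRMT*, *TFB2M* and *SLIRP* with the block end just below 0.

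With the replicate number as a block, 3 of the 10 genes had a *P* value under 0.05, *POLRMT*, *TFB2M* and *SLIRP*, each with a value below 0. limma-voom and RSEM's expected counts with the block also gave 3, but not the same genes, as *LRPPRC* took the place of *SLIRP* in the former and of *TFB2M* in the latter. Among all genes tested 16.8% were called this way, 7.39% in that direction, and 10.7% of the genes in the same range of log2 CPM. None of the 10 passed an adjusted p of 0.05 under the block, where 3.23% of all genes did, and the lowest adjusted p of the 10 was 0.256. The calls depended on which libraries entered. When both libraries of replicate 2 were left out, 0 of the 10 had a *P* value under 0.05, against 1 for replicate 3 and 2 for replicate 1. S767 was the lower library in all 3 pairs for 6 of the 10, against 17.8% of all genes and 19.9% of those in the same range of log2 CPM.

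Libraries of different replicate numbers lay farther apart than the treatments for most of the 10 mRNAs. For 9 of the 10, the means of the 3 pairs of libraries spanned a wider range of log2 CPM than the mean difference between the treatments, as was the case for 84.2% of all genes tested. The range of the pair means was 9.87 times the treatment difference for *TEFM*, 3.76 times for *TFAM*, 3.48 times for *LRPPRC* and 2.90 times for *POLRMT*. *TFB2M* was the exception, with 0.426 times. The genes did not follow the same order of replicates. *LRPPRC* was lowest and *TEFM* and *SLIRP* were highest in replicate 1 of both treatments, whereas *POLRMT* and *PNPT1* were highest in replicate 2 and *TFAM* and *MTPAP* in replicate 3.

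**Figure D4:**
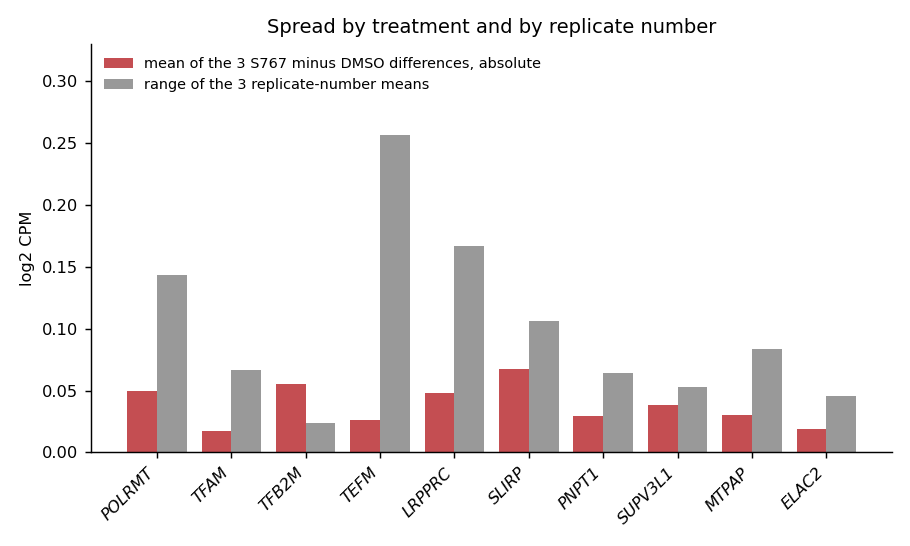
Size of the mean S767 minus DMSO difference (red bars) and range of the means of the 3 replicate numbers (grey bars), both in log2 CPM, for each gene. The grey bar is the taller for 9 of the 10 genes, with *TFB2M* as the exception.

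Proportions between partners were also compared, as ratios of TPM values. There were 0.373 ± 0.052 *LRPPRC* transcripts per *SLIRP* transcript in DMSO and 0.377 ± 0.031 in S767 (SD, n = 3 each, exact permutation test, two-sided p = 0.9). In the first replicate, where *LRPPRC* was lowest and *SLIRP* highest, this ratio was 0.313 in DMSO and 0.343 in S767, and in the other libraries it lay between 0.386 and 0.408. *PNPT1* stood at 0.837 ± 0.058 per *SUPV3L1* transcript in DMSO and 0.863 ± 0.028 in S767 (exact permutation test, p = 0.5). Relative to *POLRMT*, *TFAM* stood at 0.808 and 0.827 (p = 0.7), *TFB2M* at 0.568 and 0.559 (p = 0.9) and *TEFM* at 0.127 in both treatments (p = 0.8, exact permutation tests of 3 libraries against 3). The 5 ratios overlapped between treatments, and these tests of 3 against 3 libraries allow no p-value below 0.1. Within pairs of the same number, *TFAM* per *POLRMT* was higher in S767 in 3 of 3 pairs (exact sign-flip permutation test, p = 0.25, its smallest value with 3 pairs), and the other 4 ratios differed in direction between pairs.

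RSEM also gives, for each gene, the mean length of its transcripts weighted by their estimated abundance, which moves when the mix of isoforms moves. *TFB2M* was given the same 1784 bases in every library. The other 9 genes varied, and for 0 of the 9 did the lengths of the S767 and DMSO libraries separate, where 4.08% of genes with a varying length were longer and 3.49% shorter in S767 without overlap. The mean length of *POLRMT* was 2733 ± 77.9 bases in DMSO and 2679 ± 70.2 in S767, and that of *LRPPRC* was 6162 ± 69.5 and 6155 ± 63.6 (SD, n = 3 each). *MTPAP* varied more, from 3249 to 3718 bases, with the lowest value in the second replicate of both treatments. A change of isoform within these genes was therefore not detectable by this measure.

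To place the 10 genes among the rest of the table, the gene outside the lists with the most similar profile over the 6 libraries was sought for each, as the smallest root-mean-square difference of log2 CPM after centring each gene on its mean. With so many genes and only 6 libraries, some gene lies close to any other. The names are therefore a description, and shared regulation was not tested. The nearest of 9438 genes was *ACD* for *POLRMT* (0.0098), *SNW1* for *TFB2M* (0.0060) and *KIF11* for *LRPPRC* (0.0050). *TUSC2* was nearest to *SLIRP* (0.012), *GTPBP4* to *PNPT1* (0.0040), *RPL36AL* to *SUPV3L1* (0.0089), *TUG1* to *MTPAP* (0.0034) and *LMNB1* to *ELAC2* (0.0026). *METTL3*, the nearest to *TEFM*, was the least similar of those named, at 0.028. *TEFM* itself varied the most, with a root-mean-square deviation from its own mean of 0.118, against 0.028 for *ELAC2* to 0.079 for *LRPPRC*. The distances are not scaled for this.

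The other genes of mitochondrial gene expression were grouped by role into 7 lists of 83 genes, of which 82 were tested. *PPARGC1A*, the coactivator that was not, had at most 0.01 TPM in any library. By edgeR, 4 of the 82 were under 0.05 in *P* value, against 3.53% of all genes tested, and 0 in adjusted p. With the block these counts were 21 and 7, against 16.8% and 3.23% of all genes tested. DESeq2 gave 5 and 0 without the block, and limma-voom 4 and 0. The median log2 fold change of the 69 tested nuclear genes among them was -0.015, with 30 values above 0 and 39 below.

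Among the nuclear regulators, 1 of the 8 tested genes passed a *P* value under 0.05, against 3.53% of all genes, and it was lower in S767. *NRF1*, the transcription factor whose sites are shown above, had 33.3, 33.0 and 32.4 CPM in DMSO and 30.9, 31.1 and 30.1 CPM in S767. Every S767 library was below every DMSO library, and the log2 fold change was -0.10 (standard error 0.042). Its *P* value by edgeR was 0.0417 and its adjusted p 1.00. With the block its *P* value was 0.00319 and its adjusted p 0.0725, but with RSEM's expected counts and no block its *P* value was 0.0557. *GABPA*, a subunit of the other main regulator, had a log2 fold change of -0.044, and the 8 genes had a median of -0.038. With the block 3 of the 8 had a *P* value under 0.05 and were lower, *NRF1* and the coactivators *PPRC1* (-0.070) and *PPARGC1B* (-0.072), against 7.39% of all genes, and none of the 8 passed the adjusted limit.

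None of the 12 genes for mitochondrial DNA maintenance and transcription, the 5 for tRNA excision and the 13 for RNA granules and decay passed a *P* value under 0.05 by edgeR without the block, and with it 2, 0 and 4 did, against 16.8% of all genes, with no adjusted p under 0.05. Their median log2 fold changes were 0.013, -0.042 and -0.023. Of the 17 RNA-modifying enzymes, *MRM1*, which methylates the large mitochondrial rRNA, was lower in S767 only with the block. It had 32, 27 and 29.2 CPM in DMSO and 28, 23.9 and 26.9 CPM in S767, and its log2 fold change was -0.16. By edgeR the adjusted p was 0.0141 with the block (standard error 0.030), where 1.08% of all genes were called lower, and 1.00 without it (standard error 0.079). The 14 translation factors had a median of 0.011 and 0 genes past an adjusted p of 0.05 in either fit. Of the fragments that RSEM assigned to *MRM2* and *TSFM*, the count tables hold only 1.26% and 0.826%, so the count values of both are uncertain. With RSEM's expected counts the signs of both turned. *MRM2* went from -0.052 to 0.12, with a *P* value of 0.0266 by edgeR, and *TSFM* from 0.059 to -0.039. *PRORP* and *PTCD1*, of the tRNA excision list, had 32.4% and 25.9% of their RSEM counts in the count tables.

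The mRNAs of the mitochondrial genome, on which the 10 factors act, were the list with the most calls. The 13 protein-coding genes of this list held 4.12, 4.67 and 4.36% of the gene counts in DMSO and 4.38, 5.22 and 4.57% in S767. This share was higher in S767 in all 3 pairs. The groups overlapped (exact permutation test without regard to pairs, two-sided p = 0.4), and the difference within pairs was not tested. By edgeR 3 of the 13 had a *P* value under 0.05 and were higher in S767, *MT-ND4L*, *MT-ND4* and *MT-ND5*, and none passed the adjusted limit. With the block 6 were higher and 0 lower at an adjusted p under 0.05, where 2.16% of all genes were called higher. These were the 3 named, *MT-CYB* (0.16 with the block), *MT-ATP6* (0.14) and *MT-ATP8* (0.099). The last 2 are overlapping genes on a shared mRNA, as are *MT-ND4L* and *MT-ND4*, so the 6 calls are not 6 separate transcripts. With RSEM's expected counts and the block, *MT-ATP6* and *MT-ATP8* did not pass the adjusted limit. The log2 fold changes ran from -0.24 for *MT-ND6*, the only one of these mRNAs read from the other strand of the genome, to 0.29 for *MT-ND4L*. *MT-ND6* had 75.2, 131.3 and 97.4 CPM in DMSO and 69.9, 94.6 and 92.7 CPM in S767, lower in all 3 pairs. It did not pass edgeR's test (standard error 0.19). With the block its log2 fold change of -0.22 (standard error 0.056) had a *P* value of 0.00225 by edgeR and an adjusted p of 0.0596. Its counts were 180% of those that RSEM assigned to it. With RSEM's expected counts and the block its log2 fold change was -0.18 and its adjusted p by edgeR 0.254. In the same libraries the log2 fold changes of *POLRMT*, *TFAM*, *TFB2M* and *TEFM* lay between -0.055 and -0.018. The share of mitochondrial mRNA was highest in replicate 2 of both treatments, as was *POLRMT*, and lowest in replicate 1, as was *LRPPRC*. Whether these values are linked was not tested.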

How the data were processed

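OCI-AML5 libraries, 3 with DMSO and 3 with S767, were assigned to treatments, and numbered, as their titles say. The authors trimmed the reads, aligned them with STAR (2.7.1a) to GRCh38 and ran RSEM (1.2.28 in the submitters' processing notes). The annotation release is not given in the sources used here. The authors deposited fragment counts per gene without normalization, of which those on the reverse strand were used, since the forward strand held 6.44 to 6.58% of the counts. RSEM's deposited expected counts, which need not be whole and were rounded, its TPM values and its mean transcript lengths in bases were used as they stand. The 4 opening summary lines of each count table (20.3% of all fragments) stayed out. The spans of genes are those of GENCODE 29, in which 2 of the 10 identifiers have the version of the files and 8 another version of the same gene. Promoters were placed by RefSeq starts, which can differ from the ends of these spans.

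Counts were normalized by TMM, kept with filterByExpr (minimum count 10) and tested with edgeR 4.0.16 in R 4.3.3 by the quasi-likelihood test with Benjamini-Hochberg adjustment over 20725 genes. Standard errors are the log2 fold change over the root of F, and intervals are at 95%, for each gene alone. CPM values carry the TMM factors, and log2 CPM has a prior count of 2. The scripts were tested on simulated counts. Alternatives were limma-voom (limma 3.58.1), which the study's methods name, DESeq2 1.42.0, scaling by RLE or by library size, other limits on low counts, RSEM counts, counts of both strands, leaving out the mitochondrial genome, limma on TPM values with a pseudocount of 1 or 0.1, the replicate block, and leaving out libraries or pairs. Each of the 10 genes had 1562 or more fragments per library, which leaves a counting error of at most 2.53%.

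The ratios were compared within pairs by a test added after the data were seen. Deviations from the group means were compared over 6191 genes with a log2 CPM above 5. They correlated at 0.78, 0.87 and 0.75 between same-numbered libraries of both treatments, so the numbers pair the libraries. The correlations of all other pairs were negative, but centring on the group means pushes them that way, so their sign adds no support. The pairing comes from these values, as no source says what a number shares. Nothing says that the libraries came from independent experiments, and p-values measure only the spread between them. The 10 genes and the lists were chosen with earlier results of these data known. Named from the lists were the genes with a *P* value under 0.05 or, with the block, an adjusted p under 0.05, the other genes named there having been picked after their values were seen. The profile most similar to that of *TFAM* is not reported here.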

Additional observations from a re-analysis of the deposited data

Results flagged for a closer look

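*POLRMT* separated by treatment in the counts of the opposite strand, which the tested counts leave out. Of the fragments over this gene, 0.485, 0.469 and 0.441% were on the forward strand in the DMSO libraries and 0.558, 0.557 and 0.501% in the S767 libraries, from 148 to 255 fragments per library. The nearest libraries were DMSO replicate 1, with 212 such fragments, and S767 replicate 3, with 184. Whether their gap exceeds the counting error of so few fragments was not tested. The S767 libraries were all above the DMSO libraries (p = 0.1 by a two-sided exact permutation test, below which 3 against 3 libraries cannot go), which was the case for 2.21% of all genes tested and for 1 of the 10 described here. No other gene is annotated over *POLRMT* in GENCODE 29. Groups of 3 libraries are too small for a test of single outlying libraries.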

How the results depend on the processing

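The 25 alternatives refit the same 6 libraries or a part of them, so that agreement between them is not separate evidence. They gave 250 fold changes for the 10 genes, of which 242 were below 0, 21 were under 0.05 in *P* value and 0 in adjusted p. In the main fit 50.2% of all genes tested were below 0. The median of the 10 ranged from -0.050 to -0.025. With the block the number with a *P* value under 0.05 rose from 0 to 3 with edgeR, limma-voom, RSEM counts and the mitochondrial genome left out, and to 4 with library size alone. It was 1 with either TPM scale. All of these calls were lower in S767, where 7.39% of all genes tested were called lower by edgeR with the block. The cause was not tested. Leaving out a library gave 0, and leaving out a pair under the block 0 to 2. *MTPAP* was above 0 with log2(TPM + 1) (0.0084) and log2(TPM + 0.1) (0.0088), *TEFM* without DMSO replicate 1 (0.070), without S767 replicate 2 (0.031) and, under the block, without the replicate 1 pair (0.0059). *TFAM* was so without DMSO replicate 3 (0.0026), and *ELAC2* without S767 replicate 1 (0.0036) and, under the block, without the replicate 1 pair (0.0023). Without the block, leaving out 1 library gave -0.093 to 0.070 for *TEFM*, -0.043 to 0.0026 for *TFAM* and -0.043 to 0.0036 for *ELAC2*. It also gave -0.10 to -0.00066 for *LRPPRC*, -0.11 to -0.022 for *SLIRP* and -0.090 to -0.0096 for *POLRMT*. Under the block, leaving out a pair gave -0.057 to -0.043 for *LRPPRC*.

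Of the 82 other genes, 4 had a *P* value under 0.05 by edgeR, against 3.53% of all genes tested. With the replicate block 21 did, against 16.8% of all genes tested. There were 20 with the block in limma-voom or with library size alone, 23 with the block and RSEM counts, and 7 with log2(TPM + 0.1) and no block. Those past an adjusted p of 0.05 numbered 7 with the block in edgeR, where 3.23% of all genes tested passed. With the block they also numbered 7 in limma-voom, 6 with library size alone and 5 with RSEM counts. Without the mitochondrial genome, which removes 13 of these genes, 1 had a *P* value under 0.05, and 12 with the block, of which 1 passed the adjusted limit. Leaving out a library gave 2 to 7, and leaving out the replicate 1, 2 or 3 pair under the block 26, 13 or 14, with 16, 1 or 6 past the adjusted limit. Counting error was largest for *TEFM*, at most 2.53% of a value, where the SD of the DMSO libraries was 11.4% of their mean. For *TFB2M* it was 0.716 to 0.941%, near the SD of 1.03% in DMSO, and for *ELAC2* the SD in DMSO, 0.146%, was below it.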
